A study of Mus musculus with 6 samples.

Results

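The IL-6 family of cytokines and its receptors was followed in inflamed ear skin of mice. The family was taken as 10 genes, namely the ligands Il6, Osm, Lif and Il11, the receptor chains Il6ra, Il6st, Osmr, Lifr and Il11ra1, and the transcription factor gene Stat3. Each gene was read from the brightest probe set listed with its symbol alone, and 9 of the 10 had such a probe set, 1 each, among 19938 genes measured. Il11ra1 had none and is not analysed here. Both groups had the skin of the FITC-challenged right ear on the array: 3 mice carried CLEC4C-DTR, a transgene in which the promoter of human CLEC4C, known for its activity in plasmacytoid dendritic cells, drives the diphtheria toxin receptor, and 3 littermate controls did not. All 6 mice were 10 to 12 weeks old and were given diphtheria toxin, 200 ng per injection, the day before sensitisation (day -1) and then on days 1, 3 and 5. All were sensitised on shaved abdominal skin with 100 µL of 0.5% FITC in acetone and dibutyl phthalate on days 0 and 2, and challenged with 20 µL of it on the ear on day 6. FITC, fluorescein isothiocyanate, is a reactive dye used to provoke contact hypersensitivity. Toxin-treated mice with and without the transgene were the only groups, so loss of the targeted cells and the genotype itself cannot be told apart.

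Cytokines of this family signal through gp130, the product of Il6st, a receptor chain found on most cells. Interleukin-6 and interleukin-11 first bind their own alpha chains (Il6ra and Il11ra1), while leukaemia inhibitory factor joins gp130 to Lifr and mouse oncostatin M joins it mainly to Osmr. The receptor complexes activate Janus kinases, which phosphorylate STAT3, and SOCS3 shuts the signal off. In skin, keratinocytes, fibroblasts and endothelial cells can respond to these cytokines, and infiltrating neutrophils, macrophages and T cells are known sources of oncostatin M.

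Oncostatin M rose in the ears of CLEC4C-DTR mice, and it was the 1 member of 9 that passed the test (5.06-fold, 95% confidence interval 2.64 to 9.72). Il6 and Lif, the other inflammatory ligands, had higher values in all 3 CLEC4C-DTR mice than in any control, at 2.64-fold and 1.70-fold, and Stat3 did too at 1.30-fold, but none of these 3 passed. The receptor chains differed less: Il6ra, Il6st and Lifr had slightly lower means and Osmr a slightly higher one. A gene was called at an adjusted p of 0.05 by limma over all genes, which called 9.32% of them, so that 1 of 9 is close to that share. Of all genes 5.01% were called higher and 4.31% lower, against 1 and 0 of the 9 members, and 2.05% were called at 2-fold or more, against 1 of 9. At an unadjusted p below 0.05 there were 4 of 9 members and 27.3% of all genes. The groups did not overlap in 5 of the 9 members, 4 higher and 1 lower, where 33% of all genes did not overlap and 14% were higher without overlap. The median difference over the 9 was 0.33 on the log2 scale, against -0.039 over all genes.

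**Figure D1:**
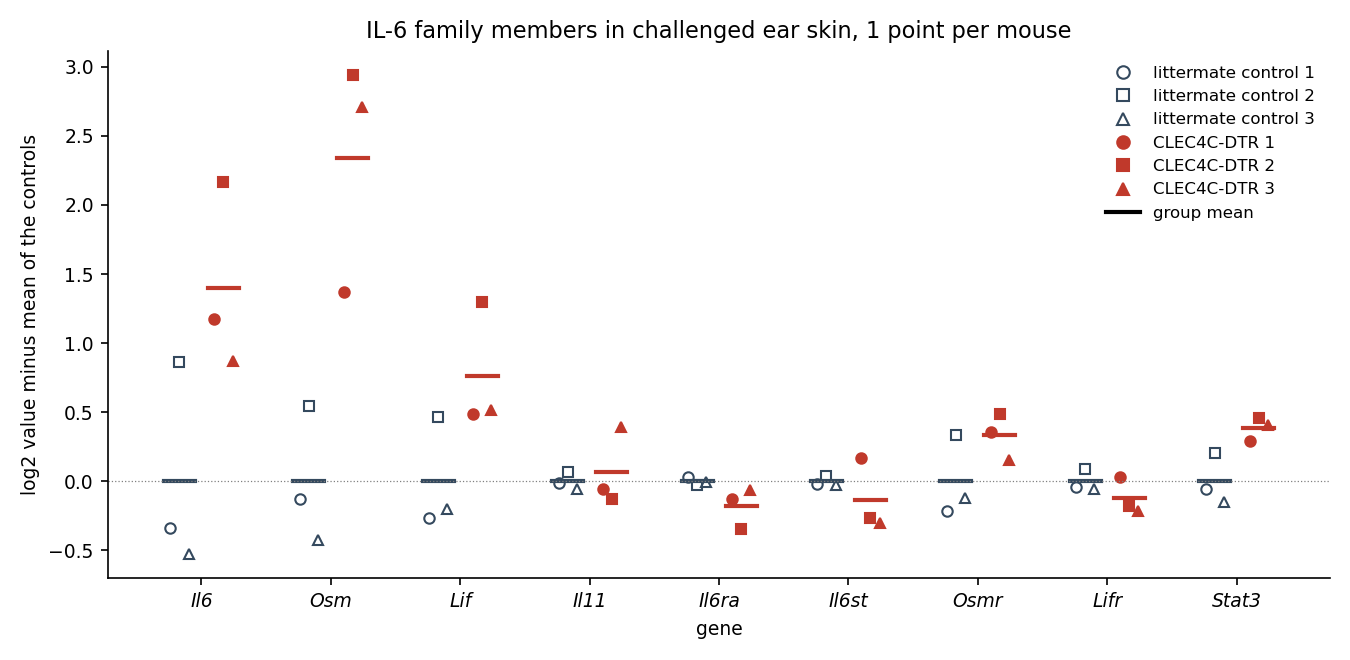
Deposited log2 value of each of the 9 measured members (x axis) in every mouse, minus the mean of the 3 littermate controls for that gene (y axis), with open symbols for controls, filled symbols for CLEC4C-DTR mice and bars for group means. The Osm points of the CLEC4C-DTR mice lie 1.37 to 2.94 above the control mean, while the receptor chains Il6ra, Il6st, Osmr and Lifr stay within 0.49 of it.

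Osm encodes oncostatin M, a ligand made mainly by leukocytes. Its log2 value was 8.01, 9.59 and 9.36 in CLEC4C-DTR mice 1, 2 and 3 and 6.52, 7.20 and 6.22 in controls 1, 2 and 3. The lowest CLEC4C-DTR mouse, replicate 1, lay 0.82 above the highest control, replicate 2, and the other CLEC4C-DTR mice stood well above it. The group means were 8.99 ± 0.85 and 6.65 ± 0.50 (SD, n = 3 each), a log2 difference of 2.34 (SE 0.41, limma adjusted p = 0.0188). An exact permutation test of 3 against 3 mice gave p = 0.1, the smallest it can give. The call depended on single mice: limma gave an adjusted p of 0.0533 when CLEC4C-DTR mouse 2 was left out, 0.0705 when mouse 3 of that group was, 0.0659 for control 1 and 0.0844 for control 3. It held when CLEC4C-DTR mouse 1 (0.000898) or control 2 (0.0258) was left out. The difference itself was 2.04 to 2.83 over these 6 fits. It was not called when the probe sets listed with no gene or several genes were also tested (adjusted p = 0.0631), or when variances were not moderated across genes (adjusted p = 0.166).

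Marker lists of neutrophils, macrophages and T cells had higher means in CLEC4C-DTR skin, as Osm did, but not all followed Osm from mouse to mouse. In whole skin, more cells of a type and more RNA per cell cannot be told apart. Of 10 neutrophil markers, 7 rose and none fell (Csf3r, Cxcr2, Retnlg, Mmp9, Mmp8, Clec4d and Trem1), where 5.01% of all genes rose. Their mean log2 value was 7.33 to 8.76 in CLEC4C-DTR mice and 5.91 to 6.52 in controls. The other 3, the granule genes Ngp, Ltf and Camp, known from immature neutrophils and named after their values were seen, did not pass. Ngp was higher in all 3 CLEC4C-DTR mice (2.30-fold, adjusted p = 0.0689), and Ltf and Camp differed by 0.31 and -0.084 on the log2 scale with overlap. Set against the mean of the controls, the neutrophil list was 1.07, 2.51 and 2.34 higher in CLEC4C-DTR replicates 1, 2 and 3, and Osm was 1.37, 2.94 and 2.71 higher in the same mice. Within the controls the order was not the same, with the neutrophil list highest in replicate 1 (0.26) and Osm highest in replicate 2 (0.55). Of 10 macrophage markers limma called 8 higher (Cd68, Csf1r, Mrc1, C1qa, C1qb, C1qc, Cd163 and Fcgr1) and 0 lower, while all 10 had an unadjusted p below 0.05. The 2 not called were Adgre1 and Lyz2, named after their values were seen. Of these, 1 had lower values in all 3 CLEC4C-DTR mice than in any control, with a log2 difference of -0.21. The mean log2 value of the 10 was 9.07 to 9.33 in CLEC4C-DTR mice and 7.97 to 8.47 in controls. The 6 measured T cell markers had a mean of 7.08 to 7.41 against 6.55 to 6.81, and 1 of them, Cd2, rose, though not when control 3 was left out. In CLEC4C-DTR replicates 1, 2 and 3 the macrophage list was 0.82, 0.81 and 1.07 above the control mean. The T cell list was 0.42, 0.74 and 0.43 above it. The part of these cells in the Osm rise was not tested. The count of neutrophil markers called by limma rested on single mice: it was 0 when CLEC4C-DTR mouse 3 or control 3 was left out (8 had an unadjusted p below 0.05 in each case), 1 for control 1 and 2 for CLEC4C-DTR mouse 2. Over all 19938 genes, 4447 had such a p without CLEC4C-DTR mouse 3 and 3788 without control 3. For macrophage markers the count called was 1 for CLEC4C-DTR mouse 3, 2 for control 1 or control 3 and 4 for CLEC4C-DTR mouse 2.

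**Figure D2:**
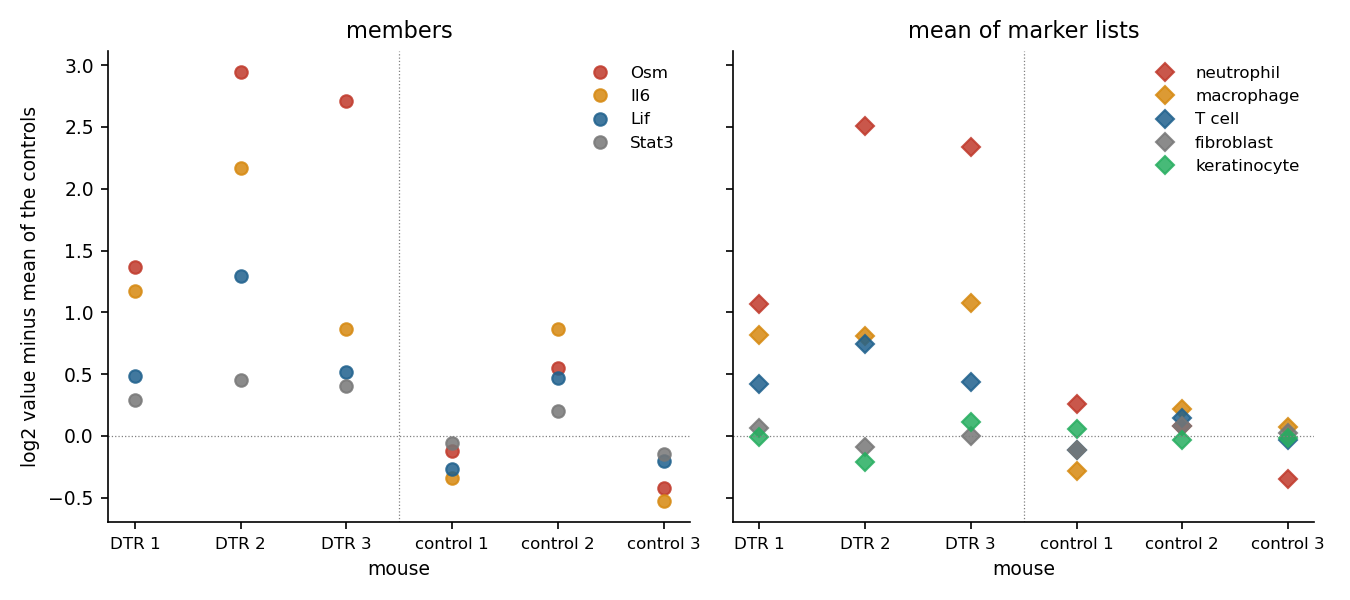
Log2 value minus the mean of the 3 controls (y axis) in each mouse (x axis), for 4 members on the left and for the mean of 5 cell type marker lists on the right. Osm and the neutrophil list are highest in CLEC4C-DTR mice 2 and 3, at 2.94 and 2.71 and at 2.51 and 2.34, while the fibroblast and keratinocyte lists stay between -0.21 and 0.11.

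The genes whose values over the 6 arrays lay closest to those of Osm were searched among all genes, by the root mean square difference of values centred on each gene's own mean. The nearest was Nlrp3, an inflammasome sensor, at 0.12 on the log2 scale. Plaur, the urokinase receptor, followed at 0.16, Hdc, the histamine-forming enzyme, at 0.17, Ccl4, a chemokine for myeloid and lymphoid cells, at 0.17, and Il1b, interleukin-1 beta, at 0.20. All 5 were called higher in CLEC4C-DTR skin by limma, between 4.53-fold and 5.40-fold, as a search for profiles like that of Osm would pick.

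Il6 encodes interleukin-6, which fibroblasts, keratinocytes and myeloid cells make in inflammation. Its log2 value was 8.79, 9.78 and 8.48 in CLEC4C-DTR mice 1, 2 and 3 and 7.28, 8.48 and 7.09 in controls 1, 2 and 3. The groups only just failed to touch: CLEC4C-DTR mouse 3 lay 0.0060 above control 2, which itself stood far above the other controls. The means were 9.02 ± 0.68 and 7.62 ± 0.75 (SD, n = 3 each), with a log2 difference of 1.40 (SE 0.42, 95% confidence interval 0.44 to 2.37, limma adjusted p = 0.0751). Without control 2 the difference was 1.83 and passed (adjusted p = 0.0346), and with any other array left out it was 1.02 to 1.67 and did not.

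Lif encodes leukaemia inhibitory factor and lies beside Osm on chromosome 11, with no other protein-coding gene between them in the RefSeq table of assembly GRCm38.p6. Its log2 value was 6.70, 7.51 and 6.73 in CLEC4C-DTR mice and 5.95, 6.69 and 6.02 in controls. As for Il6, control 2 reached almost to the lowest CLEC4C-DTR mouse, here with a gap of 0.017. The log2 difference was 0.77 (SE 0.26, 95% confidence interval 0.16 to 1.37, limma adjusted p = 0.104), and it did not pass with any array left out. Il11, a ligand known from fibroblasts and fibrosis, had values of 4.92, 4.86 and 5.38 in CLEC4C-DTR mice and 4.97, 5.05 and 4.92 in controls. The groups overlapped, CLEC4C-DTR mouse 3 alone stood apart, and the difference of 0.070 (95% confidence interval -0.25 to 0.39, adjusted p = 0.789) turned to -0.092 without it. The Il11 probe set was dim, at the 22.1 percentile of mean values over all genes, and the table holds no background measure by which to call it present.

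The ligands were set against each other and against their receptors within arrays, which shows only whether they changed unequally. The Osm difference was 1.57 larger than that of Lif on the log2 scale, with no overlap between groups (exact permutation p = 0.1), and 0.94 larger than that of Il6, with overlap (exact permutation p = 0.2). The difference of Osm was 2.01 larger than that of Osmr, that of Il6 1.58 larger than that of Il6ra and that of Lif 0.89 larger than that of Lifr, each without overlap and each at p = 0.1 by the exact permutation test. After Benjamini-Hochberg adjustment over these 5 pairs the values were 0.125, or 0.2 for Osm against Il6. With 3 mice a group, none could pass at 0.05.

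**Figure D3:**
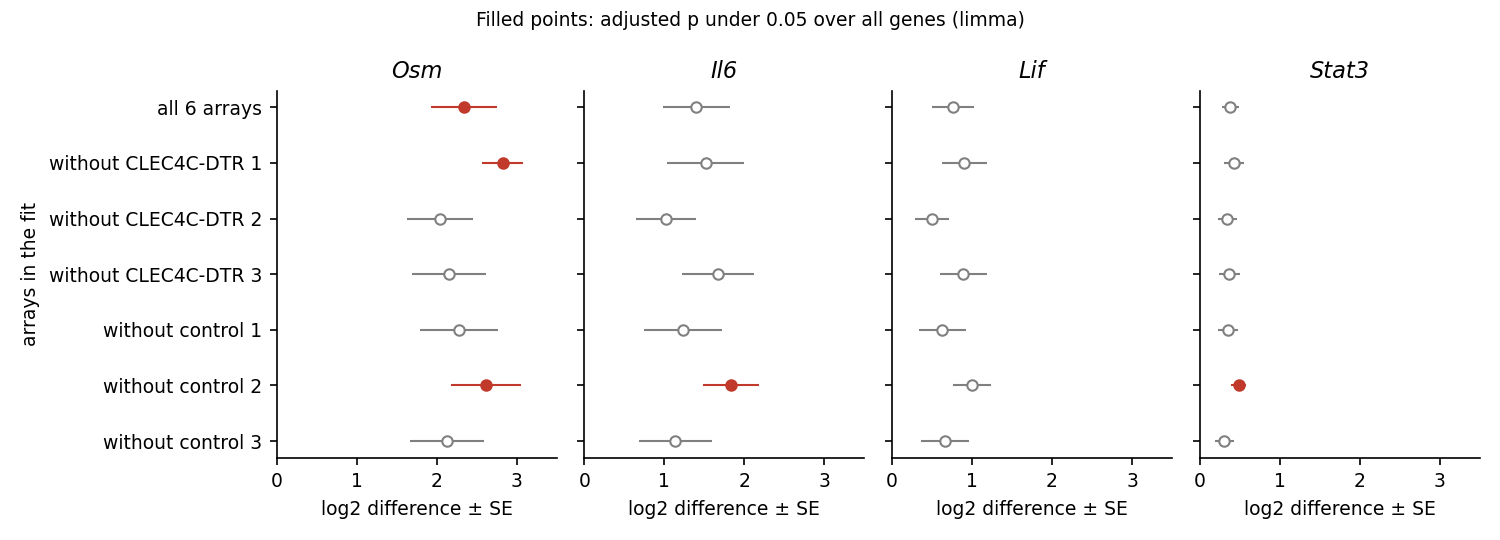
Log2 difference between CLEC4C-DTR and control skin with its SE (x axis) for Osm, Il6, Lif and Stat3, with all 6 arrays and with each array left out in turn (y axis); filled points passed an adjusted p of 0.05 in limma. Osm passed with all arrays and in 2 of the 6 reduced fits, Il6 and Stat3 passed without control 2, and Lif did not pass in any of these fits.

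Promoter sequences of the ligands are shown because Il6 and Lif had higher values together; Osm has no entry in the promoter table used. The stretch is the 250 bases before the RefSeq start in GRCm38.p6, 5′ to 3′ on the strand of the gene, and capitals mark matches on either strand to 4 textbook motifs. These were STAT (TTCNNNGAA), AP-1 (TGANTCA), C/EBP (TTNNGNAAT) and NF-kB (by its 10-base consensus). The sequences are those of Il6 at chr5:30012864-30013113 (plus strand), of Lif at chr11:4257318-4257567 (plus strand) and of Il11 at chr7:4778142-4778391 (minus strand, the downstream of its 2 starts).
Il6: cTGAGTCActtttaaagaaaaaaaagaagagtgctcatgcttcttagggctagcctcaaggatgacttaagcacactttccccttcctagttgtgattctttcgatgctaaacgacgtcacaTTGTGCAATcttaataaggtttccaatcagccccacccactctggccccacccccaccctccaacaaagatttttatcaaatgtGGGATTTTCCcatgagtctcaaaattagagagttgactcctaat
Lif: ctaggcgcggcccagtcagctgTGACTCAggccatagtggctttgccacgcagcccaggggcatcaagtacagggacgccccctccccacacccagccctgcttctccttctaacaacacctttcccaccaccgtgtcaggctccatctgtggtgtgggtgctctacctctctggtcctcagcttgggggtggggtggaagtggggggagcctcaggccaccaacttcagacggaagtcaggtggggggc
Il11: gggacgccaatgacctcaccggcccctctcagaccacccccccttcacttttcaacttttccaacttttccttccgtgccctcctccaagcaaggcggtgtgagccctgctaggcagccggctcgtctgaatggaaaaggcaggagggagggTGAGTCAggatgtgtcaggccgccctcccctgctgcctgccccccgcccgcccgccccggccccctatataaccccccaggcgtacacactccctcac
The Il6 promoter held an AP-1 match 249 bases before the start, a C/EBP match 128 bases before it and an NF-kB match 44 bases before it. Lif and Il11 each held an AP-1 match, 228 and 98 bases before the start. The window before the upstream start of Il11 held no match to any of the 4 motifs. Of 32851 promoter windows of that length in the table, 6.75% held the AP-1 motif, 10.2% the C/EBP motif, 3.90% the NF-kB motif and 7.02% the STAT motif. None of the 9 members with an entry held the STAT motif in this window. A match is a description of letters only.

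The receptor chains showed small differences. Il6st encodes gp130, the shared signalling chain, and its log2 value was 10.96, 10.52 and 10.48 in CLEC4C-DTR mice and 10.77, 10.83 and 10.76 in controls. The controls lay close together and the CLEC4C-DTR mice on both sides of them, with a difference of -0.14 (95% confidence interval -0.43 to 0.16, limma adjusted p = 0.550). A rise of more than 1.12-fold or a fall to less than 0.740 of the control level therefore lay outside the interval. Il6ra, the alpha chain for interleukin-6, was 8.31, 8.09 and 8.37 in CLEC4C-DTR mice and 8.47, 8.41 and 8.43 in controls. All 3 CLEC4C-DTR values were the lower ones, with a gap of 0.037, and the difference of -0.18 did not pass (95% confidence interval -0.40 to 0.036, adjusted p = 0.262).

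Osmr, the oncostatin M receptor chain, was 9.94, 10.07 and 9.73 in CLEC4C-DTR mice and 9.37, 9.91 and 9.46 in controls. Control 2 lay among the CLEC4C-DTR mice and the other controls below all of them. The difference was 0.33 (SE 0.16, 95% confidence interval -0.024 to 0.69, limma adjusted p = 0.211), or 0.50 without control 2 (adjusted p = 0.0586). Lifr, its neighbour on chromosome 15 with no protein-coding gene between them, was 8.71, 8.49 and 8.46 in CLEC4C-DTR mice and 8.64, 8.77 and 8.62 in controls. Here the groups overlapped and the difference was -0.12 (95% confidence interval -0.34 to 0.099, adjusted p = 0.460). Keratinocytes and fibroblasts carry Osmr, and in CLEC4C-DTR mice the keratinocyte list was -0.21 to 0.11 and the fibroblast list -0.089 to 0.067 from the control mean. Of 8 measured markers each, limma called 0 keratinocyte markers, while 4 had an unadjusted p below 0.05, and 1 fibroblast marker, Pdgfra, as higher, while 5 had an unadjusted p below 0.05. Over all genes limma called 5.01% higher, and 27.3% had an unadjusted p below 0.05. Pdgfra did not pass when CLEC4C-DTR mouse 2, CLEC4C-DTR mouse 3, control 1 or control 3 was left out. The fibroblast list mean averaged members on both sides of 0: Col1a2 (-0.41), Lum (-0.38) and Dcn (-0.21) were lower and Pdpn (0.52) higher in all 3 CLEC4C-DTR mice, none of them called and all named after their values were seen. Among keratinocyte markers, limma called Trp63 and Col17a1 lower when CLEC4C-DTR mouse 1 was left out, and Dsg3 higher when control 2 was. Trp63, Col17a1 and Dsg3 were named after their values were seen.

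Stat3 encodes the main transcription factor below gp130. Its log2 value was 10.30, 10.47 and 10.42 in CLEC4C-DTR mice and 9.96, 10.22 and 9.87 in controls. Again control 2 came closest to the CLEC4C-DTR mice, leaving a gap of 0.084. The difference was 0.38 (SE 0.11, 95% confidence interval 0.13 to 0.63, limma adjusted p = 0.0654). The test was passed when control 2 was left out (0.49, adjusted p = 0.0380), with arrays weighted by their quality (0.40, adjusted p = 0.0453) and among genes above the median level (adjusted p = 0.0478). STAT3 is regulated mostly by phosphorylation, which the array does not read.

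One control recurred in these values. Littermate control replicate 2 was the highest control for 8 of the 9 members, all but Il6ra, and CLEC4C-DTR mouse 2 was the highest of its group for Il6, Osm, Lif, Osmr and Stat3. The shares of all genes with these mice highest were not counted, so the counts cannot be read as particular to the family. For Il6st, Il11 and Lifr, control 2 lay only 0.041, 0.069 and 0.091 above the control mean. Set against the control mean, control 2 was 0.86 higher for Il6, 0.55 for Osm, 0.47 for Lif and 0.20 for Stat3. Its macrophage and mast cell lists were each 0.21 above the control mean, and its T cell and plasmacytoid dendritic cell lists each 0.14. Its fibroblast, neutrophil and cartilage lists were 0.083, 0.082 and 0.063 above it. The keratinocyte, endothelial and skeletal muscle lists of control 2 lay at -0.034, -0.037 and -0.025. The part of cell makeup in its values was not tested.

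**Figure D4:**
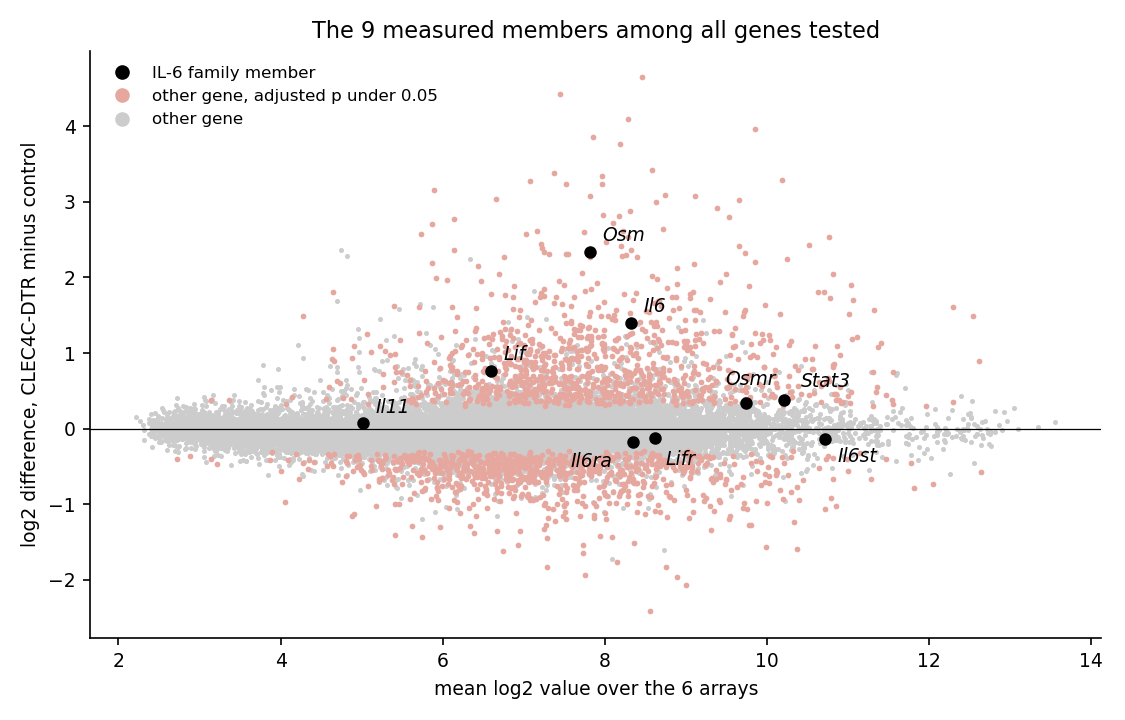
Mean log2 value over the 6 arrays (x axis) and log2 difference between CLEC4C-DTR and control skin (y axis) for 19938 genes, with the 9 members in black and other genes called at an adjusted p of 0.05 in pale red. Osm at 2.34 and Il6 at 1.40 are the highest of the members, while Il11 at 0.070, Il6st at -0.14 and Lifr at -0.12 lie in the dense band around 0.

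Other ligands and receptors that share gp130 or a member's receptor mostly did not pass. Of 8 further ligands and partners, 6 were measured, and 1 rose and none fell, where 5.01% of all genes rose. That was Ebi3, the subunit that pairs with p28 in interleukin-27, at 6.27, 6.18 and 6.28 in CLEC4C-DTR mice and 5.76, 5.70 and 5.68 in controls. Its 3 values in each group were tightly grouped, and the difference was 0.53 (SE 0.077, limma adjusted p = 0.0142). When CLEC4C-DTR mouse 3, control 1 or control 3 was left out it did not pass. Ebi3 lay below the median level, at the 39.7 percentile of mean values. As for Il11, no background measure shows whether its controls held a signal. Il27, the gene of p28, differed by 0.012 (95% confidence interval -0.21 to 0.23), and was named after its values were seen. Ctf1, cardiotrophin-1, which signals through Lifr and gp130, was lower in all 3 CLEC4C-DTR mice (-0.42, SE 0.11, adjusted p = 0.0512), and Clcf1, cardiotrophin-like cytokine factor 1, was higher in all 3 (0.32, SE 0.12, adjusted p = 0.142); both were named after their values were seen. Ctf1 passed without CLEC4C-DTR mouse 1 and with weighted arrays. Of 3 measured receptor chains limma called 0, while 1 had an unadjusted p below 0.05: Il31ra, which pairs with Osmr to bind the itch cytokine interleukin-31, differed by 0.34 (SE 0.11, adjusted p = 0.0949), and Cntfr, the ciliary neurotrophic factor receptor, by 0.041 (adjusted p = 0.876). The median difference was 0.028 for the ligands and 0.041 for the receptors.

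Kinases, adaptors and sheddases of the pathway had mostly higher values and no call. Of 11 measured, 10 had a higher and 1 a lower mean in CLEC4C-DTR skin, with a median of 0.18. Over all 19938 genes, 8329 had a higher and 11609 a lower mean. Limma called 0 of the 11, while 4 had an unadjusted p below 0.05, as did 27.3% of all genes. Jak2, a Janus kinase bound to gp130, was 9.34, 9.71 and 9.31 against 8.84, 9.20 and 8.79 in controls, without overlap (0.51, SE 0.15, adjusted p = 0.0665). Grb2, an adaptor to the MAP kinase pathway, differed by 0.35 (SE 0.12, adjusted p = 0.106). Both passed without control 2. Adam10 and Adam17, which cut receptors such as that for interleukin-6 from the cell surface, differed by 0.13 and 0.044 (adjusted p = 0.337 and 0.790), and were named after their values were seen.

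Feedback inhibitors included 1 rise among 9, where 5.01% of all genes rose and 9.32% were called in either direction. Socs3, the STAT3-induced inhibitor that binds gp130, was 9.03, 9.68 and 9.49 in CLEC4C-DTR mice and 7.98, 8.88 and 7.90 in controls. The groups did not overlap, although control 2 came within 0.15 of CLEC4C-DTR mouse 1. The rise was 2.22-fold (log2 1.15, SE 0.27, limma adjusted p = 0.0397), and it passed in 2 of the 6 fits with an array left out, those leaving out CLEC4C-DTR mouse 1 or control 2. Socs1 (0.39, adjusted p = 0.0507), Ptpn1 (0.55, adjusted p = 0.0512) and Ptpn2 (0.56, adjusted p = 0.0701), an inhibitor and 2 phosphatases of Janus kinase signalling named after their values were seen, lay just outside the threshold. After each array was centred on its median Socs1 and Ptpn1 passed too, which made 3 rises. The median difference over the 9 was 0.31.

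The Socs3 promoter is shown because Socs3 was the called inhibitor and a classical STAT3 target, at chr11:117969367-117969616 of GRCm38.p6 on the minus strand, with its 1 STAT match in capitals, 154 bases before the start.
Socs3: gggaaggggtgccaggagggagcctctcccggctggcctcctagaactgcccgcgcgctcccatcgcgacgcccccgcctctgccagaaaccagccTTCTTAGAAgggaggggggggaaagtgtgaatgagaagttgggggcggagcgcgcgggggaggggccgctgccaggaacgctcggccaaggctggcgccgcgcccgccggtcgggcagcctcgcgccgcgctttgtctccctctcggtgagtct
Of the 14 genes called in the pathway lists beside the members, each with an entry in the promoter table, 2 held the STAT motif within 250 bases before a start, Socs3 and Steap4. None held the AP-1 motif, 5 the C/EBP motif (Bcl2l1, Saa1, Saa2, Steap4 and Timp1) and 5 the NF-kB motif (Bcl2l1, Ebi3, Reg3g, Steap4 and Vegfa). A gene with several starts was counted if any of them held the motif, so these counts cannot be set directly against the shares of windows given for the ligand promoters.

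Many genes that STAT3 is known to induce rose in CLEC4C-DTR skin. Of 23 measured, 12 rose, none fell and 11 did not pass, where 5.01% of all genes rose, and the median difference was 0.65. Many of these genes also answer to other factors such as NF-kB and C/EBP, and none was chosen for STAT3 binding in skin. The list was chosen with earlier results of these data known.

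**Figure D5:**
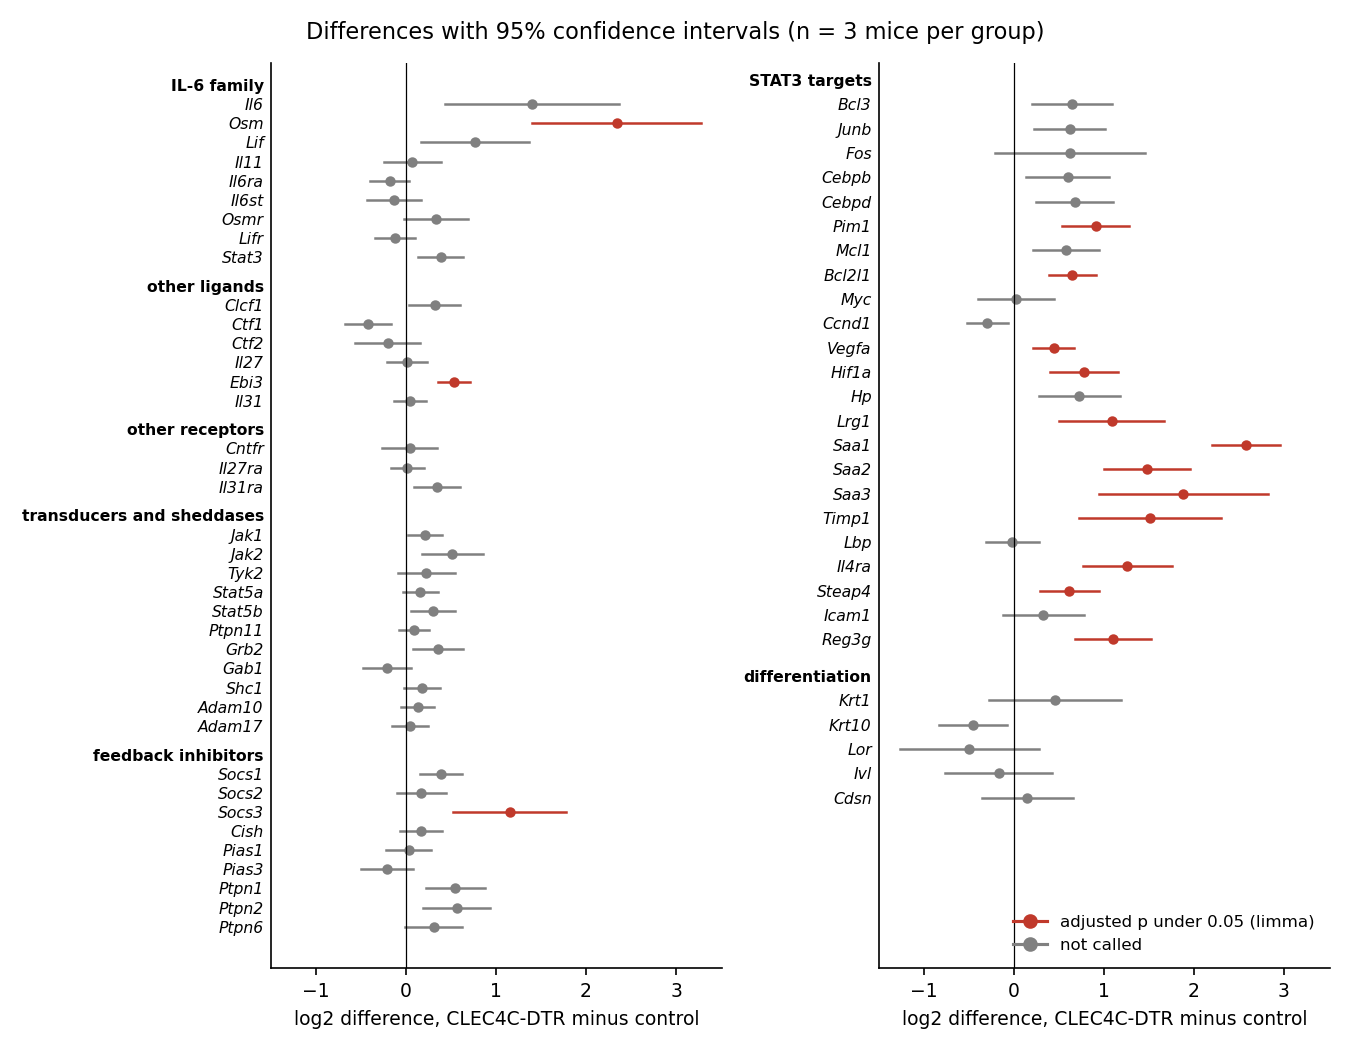
Log2 difference between CLEC4C-DTR and control skin with its 95% confidence interval (x axis) for every measured gene of the family and of the 6 pathway lists (y axis), red where limma's adjusted p was under 0.05. Red points are 1 of 9 family members, 1 of 6 other ligands, 0 of 3 receptors, 0 of 11 transducers and sheddases, 1 of 9 inhibitors, 12 of 23 STAT3 targets and 0 of 5 differentiation genes. Over all genes limma called 9.32%.

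The acute phase genes Saa1 and Saa3 had the largest differences of that list. Saa1, a serum amyloid A, was 6.74, 7.24 and 7.07 in CLEC4C-DTR mice and 4.64, 4.52 and 4.15 in controls. No other called gene of the list separated the groups by so much, and the rise was 5.96-fold (log2 2.58, SE 0.16, limma adjusted p = 0.00270). Saa1 was the 1 gene of the list that passed in each of the 6 fits with an array left out. Saa2 rose 2.79-fold (adjusted p = 0.0138) and Saa3, the form made by macrophages and epithelium, 3.69-fold (adjusted p = 0.0318). Saa1 and Saa2 are nearly identical in sequence, so their probes may read both. Lrg1, a leucine-rich glycoprotein of the acute phase, rose 2.12-fold (adjusted p = 0.0389), and Reg3g, an antimicrobial lectin that STAT3 induces in epithelium, 2.14-fold (adjusted p = 0.0178). Reg3g and Saa1 were dim, at the 20.3 and 34.5 percentile of mean values, and as for Il11 no background measure shows whether the controls held a signal, which leaves the size of their folds uncertain.

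The remaining called targets act in cell survival, growth and tissue repair. Timp1, an inhibitor of matrix metalloproteinases and a known oncostatin M target in fibroblasts, was 11.83, 11.92 and 11.55 in CLEC4C-DTR mice and 11.03, 10.29 and 9.43 in controls. Its controls were spread over more than its CLEC4C-DTR mice, and it rose 2.85-fold (log2 1.51, SE 0.34, limma adjusted p = 0.0356). Il4ra, the interleukin-4 receptor chain that oncostatin M and interleukin-6 can induce, rose 2.40-fold, from 8.81, 9.74 and 9.13 in controls to 10.42, 10.64 and 10.40 (adjusted p = 0.0178). The 3 CLEC4C-DTR values lay close together above every control. The kinase Pim1 rose 1.87-fold, the survival factor Bcl2l1 1.57-fold, the hypoxia factor Hif1a 1.71-fold, the metalloreductase Steap4 1.53-fold and the vascular growth factor Vegfa 1.36-fold (adjusted p = 0.0185 to 0.0368). Bcl3, Junb, Cebpd, Mcl1 and Hp, named after their values were seen, were higher in all 3 CLEC4C-DTR mice than in any control, by 0.58 to 0.72 on the log2 scale, and did not pass (adjusted p = 0.0572 to 0.0751). The cyclin Ccnd1 was the 1 target lower in all 3, by -0.30 (adjusted p = 0.103, named after its values were seen), and Myc and Lbp, also named after their values were seen, differed by 0.021 and -0.018. The number of rises rested on single mice: it was 2 when CLEC4C-DTR mouse 2, CLEC4C-DTR mouse 3 or control 1 was left out and 1 for control 3, while 17 to 20 of the 23 had an unadjusted p below 0.05 in each of the 6 fits. Over all 19938 genes, 3788 to 5786 had such a p in these fits.

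Oncostatin M is known to suppress terminal differentiation genes in cultured keratinocytes. Of 5 such genes measured limma called 0, while 1 had an unadjusted p below 0.05. Krt10, a keratin of the upper epidermis, was 12.56, 11.92 and 12.50 in CLEC4C-DTR mice and 12.85, 12.71 and 12.79 in controls. It was lower in all 3 CLEC4C-DTR mice, with a difference of -0.46 that did not pass (SE 0.16, adjusted p = 0.120). Lor, the envelope protein loricrin, differed by -0.50 with wide overlap (95% confidence interval -1.27 to 0.27, adjusted p = 0.382). Krt1, Cdsn and Ivl, named after their values were seen, differed by 0.46, 0.15 and -0.17 with overlap. CLEC4C-DTR mouse 2 had the lowest Krt10, Lor, Ivl and Cdsn of all 6 mice, and CLEC4C-DTR mouse 3 the highest Krt1 and Ivl. A link between Osm and these genes was not tested. The median difference of the 5 genes was -0.17, and it was 0.11 when CLEC4C-DTR mouse 2 was left out.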

How the data were processed

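Whole ear skin RNA was measured on Affymetrix arrays, each with RNA of 1 mouse (3 CLEC4C-DTR, 3 littermate controls). The log2 values deposited by the authors come from RMA, which corrects background, quantile normalises and summarises probes; the series' design text names the method, and the log2 scale was read from the values. RMA compresses differences of dim genes and removes shifts shared by most genes. The submitters' processing notes name mm8 without a role, and the RMA software was not given. Array medians were 6.17 to 6.23, and no 2 arrays were identical. The number of arrays limits the precision.

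Of 35556 probe sets, 21789 had 1 gene symbol, 1621 several, and 12146 were unlisted. The brightest of each gene's single-symbol probe sets gave 19938 genes, none removed for a low level, and names were updated through a RefSeq table of GRCm38.p6. Of the 10 family genes 9 were measured. Groups were compared with limma 3.58.1 (R 4.3.3), two-sided, CLEC4C-DTR minus control, without covariates, with Benjamini-Hochberg adjustment over all genes and a threshold of 0.05. Limma called 1858 genes, 998 higher and 860 lower, or 1150 higher and 644 lower after median centring of arrays, and 408 at 2-fold or more, the fold of the design text. The fit was first tested on simulated arrays.

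Members and lists were chosen with earlier results of these data known. Named genes are all members, called list genes or otherwise the 2 with the smallest p, and the 5 genes nearest to the member with the largest difference; others are said to be named after their values were seen. Alternatives were other scalings, a filter on dim genes, other moderation, array weights, other probe set rules, a replicate block and each array left out. Exact permutation tests used scipy 1.17.1 and figures matplotlib 3.10.9.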

Additional observations from a re-analysis of the deposited data

How the results depend on the processing

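Of 143 refits of the 9 members' differences, 130 kept direction and side of the threshold. Osm (2.34) did not pass without moderation of variances or with all probe sets of the table tested, and with an array left out it was 2.04 to 2.83. Il6 (1.02 to 1.83) and Stat3 (0.31 to 0.49) passed without littermate control replicate 2, and Stat3 also among genes above the median level (0.38) and with array weights (0.40). Il11 turned to -0.092 without CLEC4C-DTR replicate 3 and reached 0.17 in the other such fits. Without moderation limma called 0 genes, with 4387 at an unadjusted p under 0.05, and with all probe sets 95, 51 of them at least 2-fold; with arrays left out it called 67 to 2617, of which 40 to 624 were 2-fold. STAT3 targets called numbered 1 to 16 with arrays left out, 0 without moderation and 1 with all probe sets. Other ligands numbered 0 to 2 with arrays left out, 2 with array weights, and 0 without moderation or with all probe sets; above the median level it was 0 of the 2 genes left, Ebi3 not being tested there. Transducers numbered 0 to 2 with arrays left out. Inhibitors called numbered 0 to 2 with arrays left out, 3 after median centring or above the median level, 2 after a further quantile normalisation or with limma trend, 4 with array weights, and 0 without moderation or with all probe sets. With robust moderation the inhibitor called was Ptpn1 instead of Socs3. Array weights gave 2416 genes. Some of these fits held fewer samples or more features, and the cause of the changes was not tested.

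The labels number the mice 1 to 3 in each group, and nothing in them ties a number to a shared litter or day. Deviations from the group means correlated at -0.06, 0.22 and 0.10 between mice of the same number, and 3 of 6 mice correlated best with their own number, so the numbers were not taken as pairs. With the replicate block limma called 2084 genes, Il6 (1.40, adjusted p = 0.00170) and Lif (0.77, adjusted p = 0.00633) passed, 4 inhibitors, 1 transducer (Jak2) and 16 STAT3 targets were called, and Osm remained called (adjusted p = 0.00633).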

Other observations

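Marker lists of other cells in the ear, not tied to a member above, gave these values. Of 6 skeletal muscle genes 3 fell (Mb, Tnnt3 and Myh1) and none rose, where 4.31% of all genes fell, with a list mean of -0.93 to -0.45 from the control mean in the 3 CLEC4C-DTR mice (log2). Limma called 4 of them when CLEC4C-DTR mouse 1 was left out and 0 when any other mouse was, while 4 to 6 had an unadjusted p below 0.05 in those fits. Over all 19938 genes, 3788 to 5786 had such a p in the same fits. Of 4 cartilage genes 1 fell, Acan (adjusted p = 0.0496), which did not pass after median centring, with robust moderation, with the replicate block or when any mouse other than CLEC4C-DTR mouse 1 was left out. Of 7 endothelial genes 1 rose, Pecam1, where 5.01% of all genes rose, and it did not pass when any mouse other than CLEC4C-DTR mouse 1 was left out. Of 7 mast cell genes limma called 0, 0 had an unadjusted p below 0.05, and the median difference was 0.044. Of 7 measured plasmacytoid dendritic cell genes limma called 0, and the median difference was -0.17. The 2 with an unadjusted p below 0.05 lay on opposite sides, Bst2 at 0.57 and Tcf4 at -0.41. Limma called Bst2 and Irf8 higher when control 2 was left out, and Tcf4 lower when CLEC4C-DTR mouse 1 was. Bst2, Irf8 and Tcf4 were named after their values were seen.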
